A study of Arabidopsis thaliana with 8 samples.

Results

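The JAZ (JASMONATE ZIM-DOMAIN) genes encode repressors of jasmonate signalling, and the 10 of them described here were chosen by name and locus: JAZ1, JAZ2, JAZ3, JAZ5, JAZ6, JAZ7, JAZ8, JAZ9, JAZ10 and JAZ12. They are 10 of the 25198 genes in the deposited table of Arabidopsis thaliana seedlings. Of these, 6 lie on chromosome 1 (JAZ1, JAZ2, JAZ5, JAZ6, JAZ8 and JAZ9), 1 on chromosome 2 (JAZ7), 1 on chromosome 3 (JAZ3) and 2 on chromosome 5 (JAZ10 and JAZ12). Messenger RNA was sequenced from seedlings of 4 genotypes with 2 libraries each, all in the Col ecotype background and grown on plates in long days for 11 days. The first genotype is labelled chr11/17, for mutations in CHR11 and CHR17, which encode the ISWI chromatin-remodelling ATPases. The second is labelled rlt1/2, for mutations in RLT1 and RLT2, which encode partners of these ATPases. The third is the fha2 mutant, in a gene for an FHA-domain protein that the series title calls a plant-specific ISWI subunit. The reference is wild-type Col. The labels do not give the alleles, and do not say if replicates were grown apart, so each p-value rests on a spread between libraries that may be technical only.

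JAZ proteins bind MYC2 and related bHLH transcription factors and, with the adaptor NINJA and the co-repressor TOPLESS, keep jasmonate-responsive genes off. When the hormone conjugate jasmonoyl-isoleucine accumulates, it joins JAZ proteins to the F-box receptor COI1, the JAZ proteins are degraded, and the MYC factors are released. Many JAZ genes are themselves MYC targets, so their transcripts rise during a jasmonate response and the new protein restores repression. JAZ transcripts are therefore widely used as readouts of the pathway, with roles in wounding, defence, root growth and stamen and flower development.

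MYC factors bind the G-box, CACGTG, and the related letters AACGTG and CACATG. The sequences of 4 promoters are shown because the transcripts of these genes moved most, moved in a different genotype or moved the other way: JAZ5 and JAZ10 had the largest fold changes, JAZ7 was high in more than one mutant, and JAZ6 was lower. Each is the 250 bases before the annotated gene start in the RefSeq assembly TAIR10.1, 5′ to 3′ on the strand of the gene, with matches to the 3 motifs in capitals. The deposited files hold no coordinates, and these positions were read from TAIR10.1.
JAZ10, chr5:4218536-4218785, plus strand: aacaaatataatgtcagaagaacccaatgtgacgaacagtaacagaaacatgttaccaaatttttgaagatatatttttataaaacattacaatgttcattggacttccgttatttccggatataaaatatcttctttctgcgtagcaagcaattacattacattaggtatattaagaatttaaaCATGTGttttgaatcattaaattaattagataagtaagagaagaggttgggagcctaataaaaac
JAZ5, chr1:5957512-5957761, minus strand: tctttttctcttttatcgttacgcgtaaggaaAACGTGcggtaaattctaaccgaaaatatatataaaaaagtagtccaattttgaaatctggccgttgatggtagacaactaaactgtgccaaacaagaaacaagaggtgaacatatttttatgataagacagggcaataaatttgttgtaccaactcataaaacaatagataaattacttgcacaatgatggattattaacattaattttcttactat
JAZ7, chr2:14572780-14573029, plus strand: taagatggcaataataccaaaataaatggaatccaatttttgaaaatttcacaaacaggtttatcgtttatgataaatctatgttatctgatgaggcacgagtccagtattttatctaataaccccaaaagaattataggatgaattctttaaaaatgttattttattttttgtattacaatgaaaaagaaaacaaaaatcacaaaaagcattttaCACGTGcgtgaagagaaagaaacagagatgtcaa
JAZ6, chr1:27276563-27276812, minus strand: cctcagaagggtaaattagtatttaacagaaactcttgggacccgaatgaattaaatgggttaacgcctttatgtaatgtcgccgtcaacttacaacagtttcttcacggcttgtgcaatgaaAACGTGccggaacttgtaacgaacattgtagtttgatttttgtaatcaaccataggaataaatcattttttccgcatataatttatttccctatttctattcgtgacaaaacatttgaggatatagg
In JAZ10 the match is CATGTG, the reverse complement of CACATG, and begins 65 bases before the gene start. JAZ5 and JAZ6 each hold AACGTG, beginning 218 bases before the start in JAZ5 and 127 in JAZ6. JAZ7 holds the G-box 34 bases before its start. Searched on both strands, the G-box was found in 4 of the 10 JAZ promoters (JAZ2, JAZ3, JAZ7 and JAZ8) and in 6.46% of 27543 promoters of the same length. AACGTG was found in 4 of the 10 (JAZ3, JAZ5, JAZ6 and JAZ12) and in 7.51% of all promoters, and CACATG in 2 of the 10 (JAZ9 and JAZ10) and in 11% of all. At least 1 of the 3 was present in 9 of the 10, against 22.7% of all promoters, and JAZ1 had none in this window. JAZ6 and JAZ5 both carry AACGTG. In the libraries labelled chr11/17 JAZ5 rose and JAZ6 fell, and the fall of JAZ6 depended on how the counts were scaled, as given below. The part of these motifs in the changes was not tested. A match describes the letters and is not evidence of binding.

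Levels are given as CPM, read counts scaled to a common library size by TMM, which evens out differences in composition between libraries. Fold changes are log2 values with their standard error (SE) from the edgeR quasi-likelihood test across all genes, and a gene is said to rise or fall where the Benjamini-Hochberg adjusted p is under 0.05. The libraries held 20962202 to 22012119 counts, and 20866 genes passed the filter on low counts, the 10 JAZ genes among them. The targeted transcripts were checked first. RLT2 was at 2.19 and 2.21 CPM in rlt1/2, against 28.2 and 34.1 CPM in Col, and RLT1, less reduced, at 15.9 and 16.8 CPM in rlt1/2, against 25.4 and 35.7 CPM in Col. FHA2 was at 3.05 and 1.01 CPM in fha2, against 23.5 and 24.4 CPM in Col. In the chr11/17-labelled libraries neither targeted transcript was lower: CHR11 was at 73.4 and 69.7 CPM, against 47.2 and 46.3 CPM in Col, and CHR17 at 22.6 and 22.9 CPM, against 17.2 and 22.5 CPM in Col. The transcripts therefore do not show these libraries to be mutant, and they are called by their label. The 3 comparisons with Col share the same Col libraries, so they are not independent of each other.

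**Figure D1:**
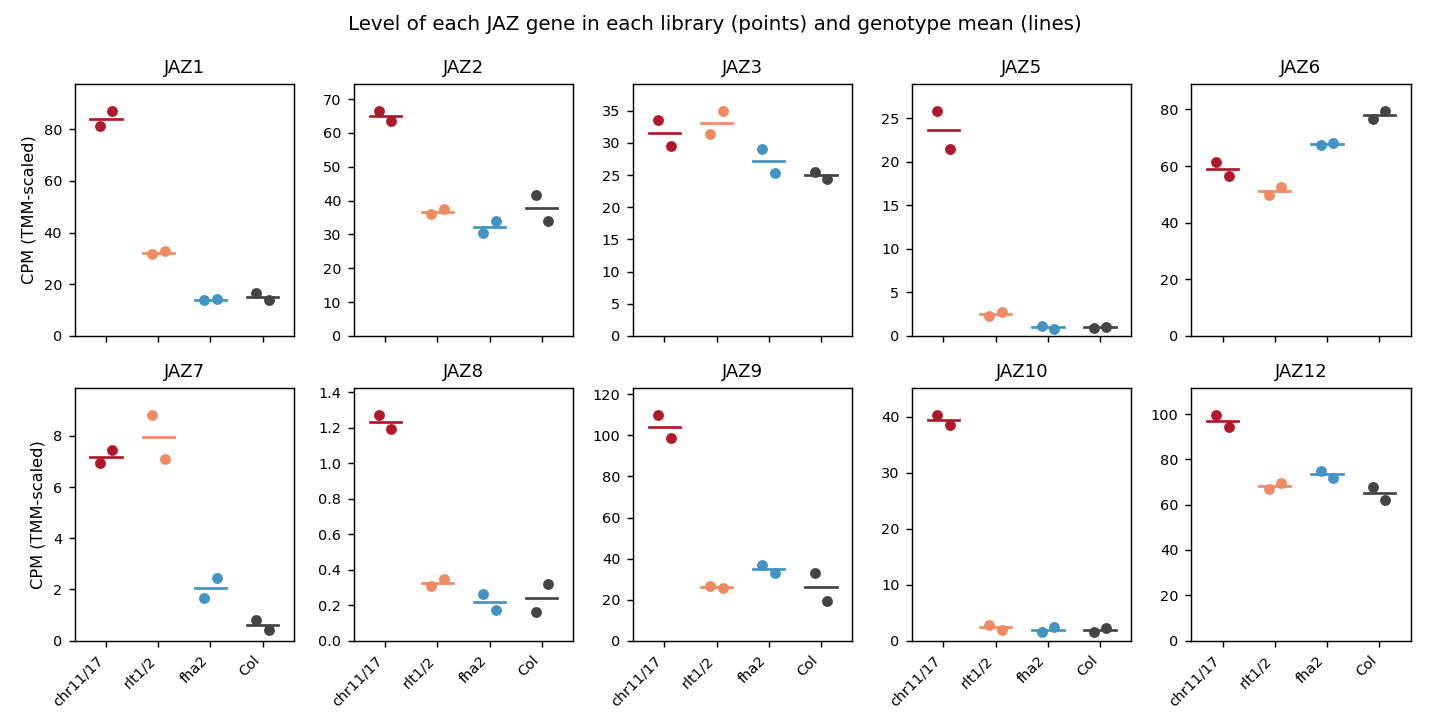
Level of each JAZ gene in CPM (vertical axis, from 0, own scale per gene) in libraries labelled chr11/17 and those of rlt1/2, fha2 and Col. Points are libraries and lines are genotype means. JAZ1, JAZ5 and JAZ10 stand highest in the libraries labelled chr11/17, JAZ7 is high in rlt1/2 as well, and JAZ6 is highest in Col.

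In the comparison of the libraries labelled chr11/17 with Col, 9 of the 10 JAZ transcripts rose and 1, JAZ6, fell. Over all genes tested 34.8% rose and 34.4% fell, so a call in either direction was common in this comparison. By at least 2-fold, 6 of the 10 rose, against 16.5% of all genes. JAZ8, counted in both the 9 and the 6, passed the filter on low counts only through the libraries labelled chr11/17. Its rise there over any other genotype is therefore not independent support. The median log2 fold change of the 10 was 2.16, and that of all genes was -0.01. In whole seedlings, more cells of a type that makes a transcript and more of that transcript per cell cannot be told apart.

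JAZ5 and JAZ10 changed most. JAZ5, a close relative of JAZ6, was at 25.9 and 21.5 CPM in the libraries labelled chr11/17, 2.32 and 2.78 CPM in rlt1/2, 1.19 and 0.790 CPM in fha2, and 0.877 and 1.07 CPM in Col. Both libraries labelled chr11/17 stood far above every other library, the rlt1/2 libraries lay above Col, and fha2 overlapped Col. JAZ5 rose by 4.60 ± 0.212 in the libraries labelled chr11/17 (log2, SE; edgeR adjusted p = 2.11e-09), which is 24.2-fold. JAZ10, whose protein damps jasmonate responses and exists in splice forms that differ in stability, was at 40.2 and 38.4 CPM in the libraries labelled chr11/17, 2.76 and 1.95 CPM in rlt1/2, 1.59 and 2.37 CPM in fha2, and 1.59 and 2.24 CPM in Col. The libraries of rlt1/2, fha2 and Col overlapped for this gene, and those labelled chr11/17 stood apart from all of them. The log2 fold change of JAZ10 over Col was 4.35 ± 0.191 (SE; edgeR adjusted p = 1.42e-09), and counts per gene do not show which splice form it was.

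JAZ1, among the first JAZ proteins shown to bind COI1, was at 81.1 and 87.2 CPM in the libraries labelled chr11/17, 31.8 and 32.8 CPM in rlt1/2, 13.9 and 14.2 CPM in fha2, and 16.5 and 13.8 CPM in Col. The libraries fell into 3 levels, highest in those labelled chr11/17, intermediate in rlt1/2, and low and overlapping in fha2 and Col. JAZ1 rose by 2.48 ± 0.104 on the log2 scale in the libraries labelled chr11/17 (SE; edgeR adjusted p = 1.02e-09). JAZ2, its closest relative, was at 66.6 and 63.6 CPM in the libraries labelled chr11/17, 35.9 and 37.4 CPM in rlt1/2, 30.5 and 34.1 CPM in fha2, and 41.7 and 33.9 CPM in Col. Here rlt1/2 overlapped Col and the rise in the libraries labelled chr11/17 was smaller, at 0.79 ± 0.106 (log2, SE; edgeR adjusted p = 2.65e-05).

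JAZ9, a relative of JAZ3, was at 109.8 and 98.8 CPM in the libraries labelled chr11/17, 26.4 and 25.8 CPM in rlt1/2, 36.7 and 32.8 CPM in fha2, and 32.8 and 19.1 CPM in Col. The Col libraries differed from each other here more than the libraries of any other genotype did. JAZ9 rose by 2.01 ± 0.178 in the libraries labelled chr11/17 (log2, SE; edgeR adjusted p = 5.79e-07). JAZ3 was at 33.6 and 29.5 CPM in the libraries labelled chr11/17, 31.3 and 35.0 CPM in rlt1/2, 29.1 and 25.4 CPM in fha2, and 25.4 and 24.4 CPM in Col. All the libraries lay within a narrow range, with those labelled chr11/17 and those of rlt1/2 above Col. Its rise of 0.34 ± 0.109 in the libraries labelled chr11/17 had an edgeR adjusted p of 0.0143, which became 0.0757 without Col replicate 2 and 0.103 without chr11/17 replicate 1.

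JAZ7 and JAZ8 encode repressors that COI1 binds weakly and that can recruit TOPLESS directly. JAZ7 was at 6.94 and 7.44 CPM in the libraries labelled chr11/17, 8.80 and 7.11 CPM in rlt1/2, 1.68 and 2.46 CPM in fha2, and 0.822 and 0.427 CPM in Col. The libraries labelled chr11/17 and those of rlt1/2 overlapped at a high level, fha2 was intermediate, and Col was lowest without overlap. JAZ7 rose by 3.52 ± 0.296 in the libraries labelled chr11/17 (log2, SE; edgeR adjusted p = 3.65e-07). JAZ8 was the scarcest, with 28 and 28 counts in the libraries labelled chr11/17, 7 and 8 counts in rlt1/2, 6 and 4 in fha2, and 3 and 6 in Col. Only those labelled chr11/17 stood apart, with a log2 fold change of 2.31 ± 0.483 (SE; edgeR adjusted p = 0.000933). JAZ8 passed the filter on low counts only through those libraries, so this rise was in part set by the filter. Differences among the other genotypes were not detectable at this depth.

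JAZ12 and JAZ6 are the remaining members. JAZ12, whose protein also binds the ubiquitin ligase KEG, was at 99.4 and 94.4 CPM in the libraries labelled chr11/17, 66.8 and 69.7 CPM in rlt1/2, 74.9 and 72.0 CPM in fha2, and 67.6 and 62.3 CPM in Col. The libraries labelled chr11/17 lay above all others, fha2 lay just above Col, and rlt1/2 overlapped Col. JAZ12 rose by 0.58 ± 0.0855 (log2, SE; edgeR adjusted p = 5.84e-05) in the libraries labelled chr11/17, and by 0.73 when the counts of the overlapping gene AT5G20910 were added. JAZ6 was at 61.6 and 56.6 CPM in the libraries labelled chr11/17, 49.6 and 52.7 CPM in rlt1/2, 67.4 and 68.3 CPM in fha2, and 76.7 and 79.6 CPM in Col. Every mutant library lay below both Col libraries. In the libraries labelled chr11/17 its log2 value fell by 0.40 (SE 0.0851; edgeR adjusted p = 0.00101). Scaled by total counts in place of TMM, which moves the median of all genes up by 0.27, this value was -0.12 with an edgeR adjusted p of 0.245.

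**Figure D2:**
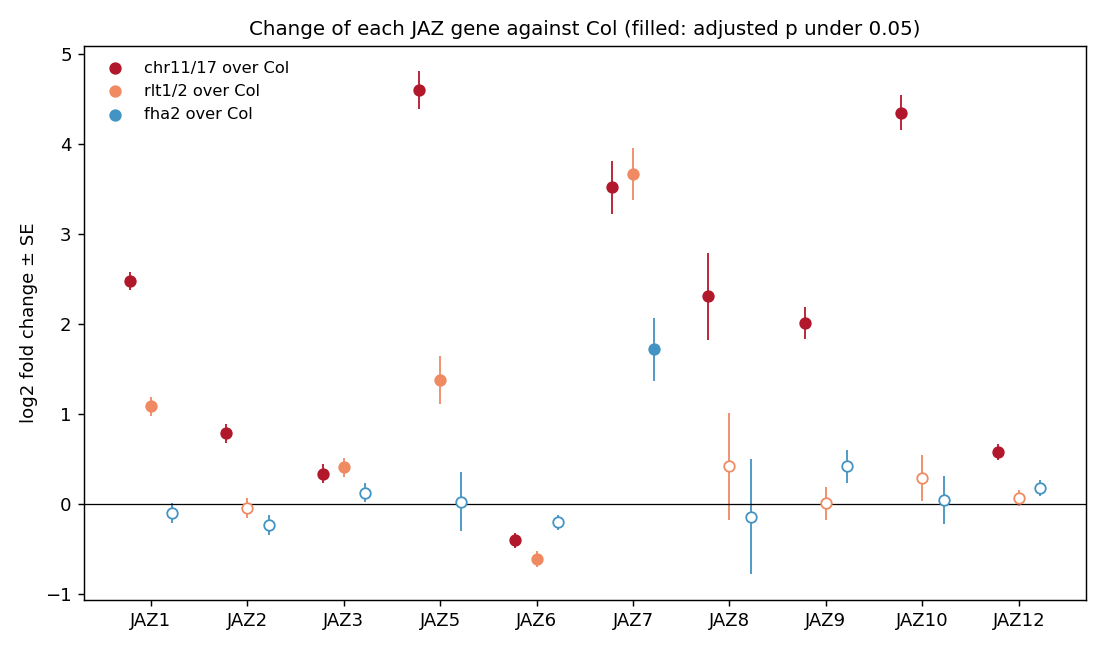
Log2 fold change of each JAZ gene (vertical axis) in the libraries labelled chr11/17, in rlt1/2 and in fha2, each over Col. Points are edgeR estimates, bars are ± 1 SE, and filled points have an adjusted p under 0.05. JAZ5 (4.60) and JAZ10 (4.35) are highest in the libraries labelled chr11/17, and JAZ7 (3.67) is the highest in rlt1/2.

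In rlt1/2, 4 of the 10 JAZ transcripts rose against Col (JAZ1, JAZ3, JAZ5 and JAZ7) and JAZ6 fell. Of all genes tested, 18.7% rose and 18.7% fell. The median log2 fold change of the 10 was 0.35, and 0.01 over all genes. JAZ7 changed most, by 3.67 ± 0.293 (log2, SE; edgeR adjusted p = 2.41e-06), or 12.7-fold. JAZ5 rose by 1.38 ± 0.271 (edgeR adjusted p = 0.00164) and JAZ1 by 1.09 ± 0.105 (edgeR adjusted p = 9.06e-06). The log2 value of JAZ6 fell by 0.61 (SE 0.0856; edgeR adjusted p = 0.000156). JAZ10 was at 0.29 ± 0.257 (log2, SE; edgeR adjusted p = 0.397) and did not pass the test. The rise of JAZ3, 0.41 ± 0.109 (edgeR adjusted p = 0.00998), did not pass without Col replicate 2 (0.0646) or without rlt1/2 replicate 2 (0.0889). JAZ9 was at 0.01 (log2; edgeR adjusted p = 0.978), and at 0.45 without Col replicate 1 (edgeR adjusted p = 0.0238). Scaled by total counts, which moves the median of all genes up by 0.29, JAZ12 also passed, at 0.36 (edgeR adjusted p = 0.00395).

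In fha2, JAZ7 alone rose among the 10, by 1.72 ± 0.349 on the log2 scale (SE; edgeR adjusted p = 0.00801), which is 3.30-fold. Of all genes tested, 6.33% rose and 8.76% fell in fha2. The median log2 fold change of the 10 was 0.04, and 0.01 over all genes. Both fha2 libraries lay above both Col libraries for JAZ7, with 38 and 56 counts, against 15 and 8 in Col. Without Col replicate 2 its log2 fold change was 1.33 (edgeR adjusted p = 0.0702), and without fha2 replicate 2 it was 1.42 (0.085). JAZ9 was at 0.42 ± 0.180 (edgeR adjusted p = 0.132) and at 0.86 without Col replicate 1 (edgeR adjusted p = 0.00592). Scaled by total counts, which moves the median of all genes up by 0.26, JAZ3, JAZ9 and JAZ12 also passed, at 0.38, 0.68 and 0.43.

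In the authors' deposited table, with a q-value under 0.05, 8 of the 10 had higher and 1 had lower values in the libraries labelled chr11/17, and 4 had higher and 1 lower values in rlt1/2, each over Col. In fha2 that table had 0 of the 10 under 0.05, with JAZ7 at a log2 fold change of 1.73 and q = 0.0527. With edgeR on the same counts, 3 of the 10 in fha2 had an unadjusted p under 0.05, 2 higher and 1 lower. The shares of all genes under these thresholds are not given here, so these counts have no background beside them. JAZ3 in the libraries labelled chr11/17 was the gene that edgeR called and the authors' deposited table did not, with q = 0.0907 there.

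The mutants were then compared with each other. Against rlt1/2, 7 of the 10 JAZ transcripts rose in the libraries labelled chr11/17, where 29.3% of all genes rose: JAZ1, JAZ2, JAZ5, JAZ8, JAZ9, JAZ10 and JAZ12. JAZ10 differed most, by 4.06 ± 0.179 (log2, SE; edgeR adjusted p = 6.1e-09), followed by JAZ5 at 3.21 ± 0.175 (2.66e-08) and JAZ9 at 2.00 ± 0.175 (1.23e-06). JAZ7 differed by -0.15 ± 0.198 (edgeR adjusted p = 0.549), and its libraries overlapped between these genotypes. Against the libraries labelled chr11/17, 8 of the 10 fell in fha2, where 35% of all genes fell. The exceptions were JAZ3, at -0.21 ± 0.107 (edgeR adjusted p = 0.0925), and JAZ6, at 0.20 ± 0.0849 (edgeR adjusted p = 0.0521). Against rlt1/2, 4 of the 10 fell in fha2 (20.9% of all genes fell) and JAZ6 rose (20.2% of all genes rose). JAZ7 fell by 1.94 (edgeR adjusted p = 5.94e-05) and JAZ5 by 1.36 (0.00136) on the log2 scale, and JAZ1 stood at 0.437 times its rlt1/2 level (6.79e-06). JAZ3, which fell by 0.29 (edgeR adjusted p = 0.0484), did not pass when any 1 of the 4 libraries was left out. JAZ6 rose by 0.41 ± 0.0853 (edgeR adjusted p = 0.00253).

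Levels of markers of other tissues also differed between genotypes. Over all genes, 34.8% rose and 34.4% fell in the libraries labelled chr11/17, 18.7% rose and 18.7% fell in rlt1/2, and 6.33% rose and 8.76% fell in fha2. The summed level of 7 floral organ genes was 268.7 to 340.2 CPM in the libraries labelled chr11/17, 154.5 to 159.3 in rlt1/2, 10.6 to 20.8 in fha2 and 5.04 to 7.62 in Col. Of these genes 5 were tested, of which 5 rose in the libraries labelled chr11/17, 3 in rlt1/2 and 1 in fha2, the last becoming 0 without Col replicate 1 or fha2 replicate 2. The 8 seed storage genes summed to 195.1 to 465.0 CPM in the libraries labelled chr11/17, 94.5 to 108.7 in rlt1/2, 1.01 to 1.24 in fha2 and 0.548 to 0.800 in Col. There CRU2, CRU3, SESA3 and SESA5 were at 0 in both Col libraries, and 6 of 6 tested rose in the chr11/17-labelled libraries and in rlt1/2. With sums this low in Col and fha2, these genes passed the filter on low counts chiefly through the libraries where they were high. Their 6 of 6 was therefore largely set by the filter. Among the floral genes, AP3, at 3 to 8 counts in fha2 and Col, passed only through the chr11/17-labelled and rlt1/2 libraries. So did AP1, at 0 to 3 counts in fha2 and Col. SEP1, at 4 and 6 counts in Col, passed only through mutant libraries. SEP2 was at 0 to 4 counts in rlt1/2 and fha2. The counts of floral genes that rose were therefore in part set by the filter. The 6 green-tissue genes, present in every library, summed to 16874 to 17086 CPM in the libraries labelled chr11/17, 44048 to 45137 in rlt1/2, 52436 to 55409 in fha2 and 81214 to 92635 in Col, and 6 fell in the chr11/17-labelled libraries, 6 in rlt1/2 and 5 in fha2. Those 5 became 3 without Col replicate 1 or fha2 replicate 1, and 2 without fha2 replicate 2. The 7 root genes summed to 88.9 to 102.9 CPM in the libraries labelled chr11/17, 215.7 to 230.6 in rlt1/2, 137.2 to 139.6 in fha2 and 132.1 to 179.1 in Col, and 1 rose and 4 fell in the libraries labelled chr11/17, 2 rose and 1 fell in rlt1/2, and 1 fell in fha2. These root counts were not stable. The single rise in the libraries labelled chr11/17 did not pass if Col replicate 1 or else chr11/17 replicate 2 was left out. In rlt1/2, 1 rose without Col replicate 2 or either rlt1/2 library, and 0 fell without rlt1/2 replicate 1. In fha2, 0 fell without Col replicate 1 or either fha2 library, and 2 fell without Col replicate 2. The gene that fell in fha2 with all libraries is EXPA7, a root hair expansin, and with the counts of an overlapping gene added it was at -0.08 in fha2 (edgeR adjusted p = 0.722). With total-count scaling, 1 rose and 3 fell in the libraries labelled chr11/17, 4 rose and 0 fell in rlt1/2, and 2 rose and 0 fell in fha2. Of all 20866 genes, 9243 rose and 5227 fell in the libraries labelled chr11/17 under that scaling, 8108 and 1849 in rlt1/2, and 6059 and 665 in fha2.

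JAZ genes are also induced by touch and wounding, and some vary with the time of day. Over all genes, 34.8% rose and 34.4% fell in the libraries labelled chr11/17, 18.7% rose and 18.7% fell in rlt1/2, and 6.33% rose and 8.76% fell in fha2. Of 9 touch and wound genes, 4 rose and 3 fell in the libraries labelled chr11/17, 6 rose and 2 fell in rlt1/2, and 1 rose and 2 fell in fha2. The 4 and 3 lie near those shares, and the 6 rises in rlt1/2 lie above theirs. Those 6 became 5 with DESeq2, where 3092 of all 20866 genes rose in rlt1/2. They were also fewer without Col replicate 2 or rlt1/2 replicate 2. RRTF1 and WRKY40, which are among the 4, overlap another gene, and with its counts added they did not pass in the libraries labelled chr11/17, at 0.20 (edgeR adjusted p = 0.211) and -0.16 (0.215). In rlt1/2 RRTF1 then did not pass either, at 0.12 (edgeR adjusted p = 0.526), and WRKY40 did, at 0.34 (0.029). The fall of WRKY40 in fha2 was lost as well, at -0.35 (edgeR adjusted p = 0.0582). In rlt1/2, 1 fell without either Col library and 0 without rlt1/2 replicate 1. The falls in fha2 became 1 without Col replicate 2 or fha2 replicate 1, and 0 without fha2 replicate 2. Under total-count scaling 6 were higher and 2 lower for the chr11/17-labelled libraries, 6 and 1 for rlt1/2, and 2 and 2 for fha2. Of 9 time-of-day genes, 2 rose and 3 fell in the libraries labelled chr11/17, 2 rose and 3 fell in rlt1/2, and 1 fell in fha2. These counts lie near the shares over all genes. In rlt1/2, 1 rose when any 1 library was left out, and in fha2 the fall was lost without Col replicate 1 or either fha2 library. Total-count scaling gave 5 higher and 3 lower for the chr11/17-labelled libraries, 2 and 2 for rlt1/2, and 3 and 1 for fha2. Rises were more common under that scaling over all 20866 genes too, at 9243, 8108 and 6059 in the same order. The part of these tissues and conditions in the JAZ result was not tested.

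To compare genes with each other within a genotype, the authors' FPKM values were used, which divide by transcript length. JAZ12 had the highest level in every genotype, with 22.9% and 23% of the summed FPKM of the 10 genes in the libraries labelled chr11/17, 31.5% and 32% for rlt1/2, 35.7% and 35% for fha2, and 31.8% and 32.9% for Col. JAZ8 had the lowest in every genotype. The order between them differed. JAZ6 was second in rlt1/2, fha2 and Col, where it held 23.9% and 27.8%, and 4 other genes stood above it in the libraries labelled chr11/17, where it held 9.42% and 9.13%. JAZ9 took second place there, with 21.4% and 20.3%, against 13% and 8.65% in Col. JAZ10 held 7.33% and 7.3% in the libraries labelled chr11/17, against 0.56% and 0.877% in Col. Neighbours in the order whose libraries overlapped were JAZ9 and JAZ3, and JAZ5 and JAZ10, in rlt1/2, JAZ9 and JAZ2 in fha2, and JAZ7 and JAZ5 in Col. Summed over the 10 genes, the level was 526.4 and 498.8 CPM in the libraries labelled chr11/17, 255.9 and 265.5 CPM in rlt1/2, 257.2 and 252.5 CPM in fha2, and 264.1 and 237.1 CPM in Col. The summed CPM of rlt1/2 overlapped Col, while 4 of its members were higher and the abundant JAZ6 was lower. This overlap depends on the scaling. Without TMM, the summed FPKM was 207.7 and 214.5 in rlt1/2 and 200.7 and 199.2 in fha2. Both lay above the 166.1 and 157.3 of Col.

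**Figure D3:**
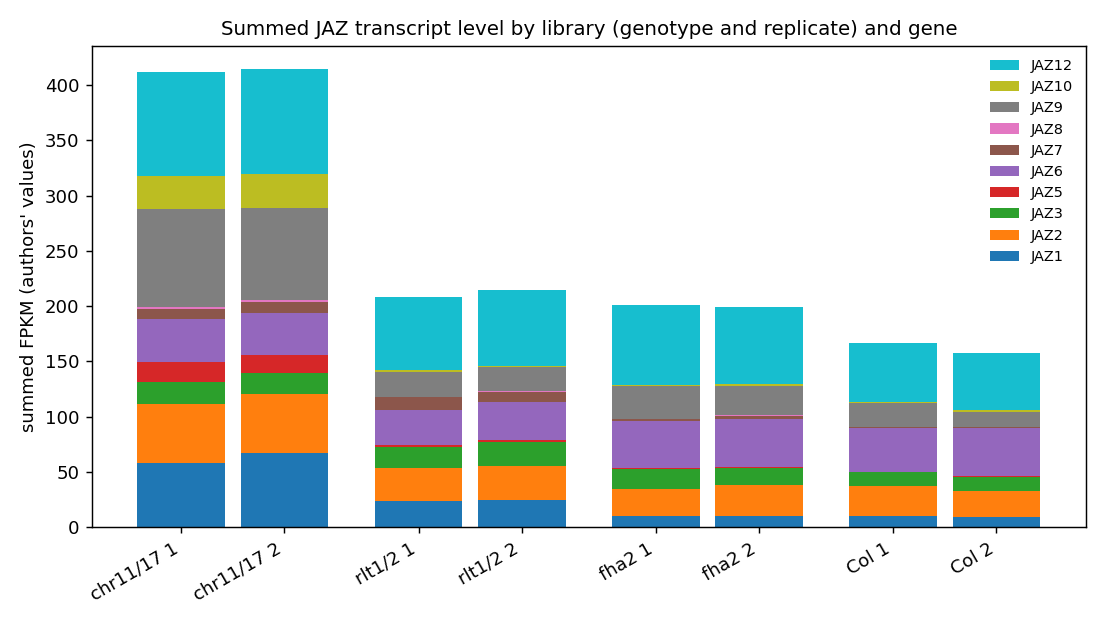
Summed FPKM of the 10 JAZ genes (vertical axis, the authors' values, from 0) in each library, stacked by gene. FPKM have no TMM scaling, so heights between genotypes differ from the CPM sums. JAZ12 is the largest share in every library, and JAZ9, JAZ1 and JAZ10 take larger shares in the libraries labelled chr11/17.

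Of the 9 other genes with a TIFY domain, 3 rose and 3 fell in the libraries labelled chr11/17 against Col, with a median log2 fold change of 0.25, where 34.8% of all genes rose and 34.4% fell. JAZ4 did not pass (0.43 ± 0.233, edgeR adjusted p = 0.122) and JAZ11 fell by 0.31 (edgeR adjusted p = 0.0212). TIFY8 fell by 1.78 in the libraries labelled chr11/17 (edgeR adjusted p = 7.24e-08), by 0.90 in rlt1/2 (0.000102) and by 0.46 in fha2 (0.0226), and in fha2 it did not pass without Col replicate 1 or fha2 replicate 2. Its overlapping gene AT4G32560 moved these values to -1.44, -0.74 and -0.41 when added. JAZ13, a divergent JAZ gene, had 62 and 54 counts in the libraries labelled chr11/17, against 1 and 2 in Col, a ratio of 31.4 (exact 95% interval 10.5 to 154.5, counting error only). JAZ13 passed the filter on low counts only through the libraries labelled chr11/17. Its locus overlaps AT3G22270, and with the counts of both added the value was -0.51, so the direction depends on how reads were divided there. With total-count scaling, 5 of the 9 rose and 1 fell, where 9243 of all 20866 genes rose and 5227 fell. The 3 falls became 1 with DESeq2, 2 without Col replicate 1, and 1 without Col replicate 2 or either library labelled chr11/17.

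The JAZ proteins act with a receptor, MYC factors and co-repressors. Of 9 genes for the receptor and transcriptional complex, 4 rose and 2 fell in the libraries labelled chr11/17, 3 rose in rlt1/2 and 3 rose in fha2. Background shares over the whole table were 34.8% rising and 34.4% falling for the chr11/17-labelled libraries, 18.7% rising for rlt1/2 and 6.33% rising for fha2, and the 4 and 2 of 9 lie near them. NINJA rose by 0.61 ± 0.0904 (log2, SE; edgeR adjusted p = 5.48e-05) in the libraries labelled chr11/17, and COI1 fell by 0.49 (edgeR adjusted p = 0.0009). JAM1 and JAM3, which encode bHLH repressors that oppose MYC2, rose by 0.88 and 0.89 there, while JAM2, their relative, fell by 0.79. MYC3 and MYC4, which act beside MYC2, rose by 0.48 and 0.61 in fha2, and in the libraries labelled chr11/17 they did not pass, at -0.17 and 0.11. TPL, the gene for TOPLESS, was at -0.15 in the libraries labelled chr11/17 (edgeR adjusted p = 0.147) and at -0.36 with its overlapping gene AT1G15740 added (0.00346). MYC2 was at 11.2 and 8.04 CPM in the libraries labelled chr11/17, 0.876 and 1.04 CPM in rlt1/2, 3.58 and 3.03 CPM in fha2, and 0 and 0 CPM in Col. It passed the filter on low counts only through the mutant libraries, so its rises are not independent support for the 4, 3 and 3. Against 3 counts over the Col libraries, MYC2 was at least 117.8-fold higher in the libraries labelled chr11/17, 11.8-fold in rlt1/2 and 40.7-fold in fha2. With the overlapping gene AT1G32630 added, the log2 fold change was 1.24 in the libraries labelled chr11/17 (edgeR adjusted p = 1.84e-06), 0.30 in rlt1/2 (0.087) and 0.41 in fha2 (0.0493), so the size of the MYC2 change depends on how reads were divided between these genes. Scaled by total counts, 5 rose and 1 fell in the libraries labelled chr11/17, 6 rose in rlt1/2 and 5 rose in fha2. Rises over all 20866 genes then numbered 9243, 8108 and 6059 in the same order. In rlt1/2 the 3 that rose, MYC2 among them, became 1 with DESeq2 and 1 without Col replicate 1 or either rlt1/2 library, and 2 without Col replicate 2. In fha2 the 3 became 1 without Col replicate 1 or fha2 replicate 2, and 2 without Col replicate 2.

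Of 13 tested genes of jasmonate synthesis (14 listed), 10 rose and 2 fell in the libraries labelled chr11/17, where 34.8% of all genes rose and 34.4% fell. LOX3, a lipoxygenase of the first step, was at 153.6 and 162.0 CPM there, against 14.0 and 7.36 CPM in Col, a log2 fold change of 3.89 ± 0.193 (SE; edgeR adjusted p = 3.71e-09). ACX1, of the last steps in the peroxisome, rose by 1.40 ± 0.0892 (edgeR adjusted p = 2.96e-08). AOC3 and AOC4, for allene oxide cyclase, were at 2.31 and 1.69, but the AOC copies are much alike and their reads could be split wrongly. The 2 that fell, LOX6 and AOC2, became 1 without Col replicate 2 or chr11/17 replicate 1, and 0 with DESeq2 or without Col replicate 1 or chr11/17 replicate 2. In rlt1/2, 6 rose and 3 fell (18.7% of all genes each way), and LOX3 was at 0.37 (edgeR adjusted p = 0.168). In fha2, 2 rose, LOX2 by 0.63 and LOX3 by 0.72, where 6.33% of all genes rose. This count was 1 with DESeq2, 3 with limma-voom, 2 without Col replicate 1 and 0 without Col replicate 2 or either fha2 library. Under total-count scaling, 10 rose in the libraries labelled chr11/17, 9 rose and 1 fell in rlt1/2, and 8 rose in fha2. Rises over all 20866 genes then numbered 9243, 8108 and 6059 in the same order.

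Jasmonate turnover had 9 of 11 genes higher in the libraries labelled chr11/17 (34.8% of all genes) and 4 higher in rlt1/2 (18.7%). JOX2, which encodes a jasmonate hydroxylase, was at 255.6 and 212.0 CPM in the libraries labelled chr11/17, 21.2 and 21.8 CPM in rlt1/2, 4.42 and 4.87 CPM in fha2, and 5.04 and 3.84 CPM in Col. It rose by 5.72 ± 0.145 in the libraries labelled chr11/17 (log2, SE; edgeR adjusted p = 4.36e-11) and by 2.27 ± 0.149 in rlt1/2 (5.11e-07), and its fha2 libraries overlapped Col. JOX3, of the same family, had 800 and 754 counts in the libraries labelled chr11/17, against 3 and 2 in Col. JOX3 and JOX4 passed the filter on low counts only through the libraries labelled chr11/17, so their rises are not independent support for the 9. JOX1, at 7 and 4 counts in Col, passed it only through mutant libraries. CYP94B3, which oxidises the hormone conjugate, rose by 3.43 ± 0.17 in the libraries labelled chr11/17 (edgeR adjusted p = 3.64e-09) and did not pass in rlt1/2 (0.48, adjusted p = 0.084). IAR3, an amidohydrolase that splits it, rose by 2.78 in the libraries labelled chr11/17 and by 0.85 in rlt1/2. In fha2, 0 of the 11 passed with edgeR, with limma-voom or with DESeq2, and 0 had an unadjusted edgeR p under 0.05. Of all genes, 6.33% rose and 8.76% fell in fha2 with edgeR. Under total-count scaling, 11 turnover genes rose in the libraries labelled chr11/17, 5 in rlt1/2 and 1 in fha2. Rises over all 20866 genes then numbered 9243, 8108 and 6059 in the same order. The 4 in rlt1/2 became 2 without Col replicate 2 or rlt1/2 replicate 1.

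Among downstream outputs, 6 of 9 tested (11 listed) rose in the libraries labelled chr11/17, 3 rose and 1 fell in rlt1/2, and 2 rose in fha2. The corresponding background was 34.8% rising for the chr11/17-labelled libraries, 18.7% each way for rlt1/2 and 6.33% rising for fha2. CORI3, a coronatine-induced lyase gene, rose in each: by 3.54 ± 0.181 (log2, SE; edgeR adjusted p = 4.73e-09) in the libraries labelled chr11/17, by 1.96 ± 0.171 (4.58e-06) in rlt1/2 and by 0.98 ± 0.168 (0.00374) in fha2. TAT3, a tyrosine aminotransferase gene, rose by 5.24 in the libraries labelled chr11/17 (edgeR adjusted p = 2.44e-07), by 2.44 in rlt1/2 (0.00386) and by 2.13 in fha2 (0.0263). JAV1, whose product restrains jasmonate defence, rose by 2.40 ± 0.156 (edgeR adjusted p = 3.57e-08) in the libraries labelled chr11/17. THI2.1, a thionin gene, had 369 and 221 counts there, against 1 and 1 in Col, and its log2 fold change was 1.40 with the overlapping gene AT1G72250 added. THI2.1 passed the filter on low counts only through the libraries labelled chr11/17, so its rise is not independent support for the 6. TAT3, at 6 and 2 counts in Col, passed that filter only through mutant libraries. ERF1, at 6 and 1 counts in Col and 8 and 7 in fha2, passed it only through the chr11/17-labelled and rlt1/2 libraries. Rises of TAT3 or ERF1 over Col are therefore not independent support either. The 2 outputs in fha2 became 1 with limma-voom and 1 without Col replicate 2 or fha2 replicate 1, and 0 without fha2 replicate 2. VSP2, a vegetative storage protein gene, was the output that fell in rlt1/2, by 0.81 (edgeR adjusted p = 0.00929), but not without Col replicate 2 or either rlt1/2 library. With total-count scaling, 6 outputs rose in the libraries labelled chr11/17, 5 rose and 1 fell in rlt1/2, and 2 rose in fha2. Rises over all 20866 genes then numbered 9243, 8108 and 6059 in the same order. Over the complex, synthesis, turnover and output genes together, 42 of 45 were tested, and the medians were 1.37 in the libraries labelled chr11/17, 0.37 in rlt1/2 and 0.18 in fha2, also with MYC2 at its bound.

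**Figure D4:**
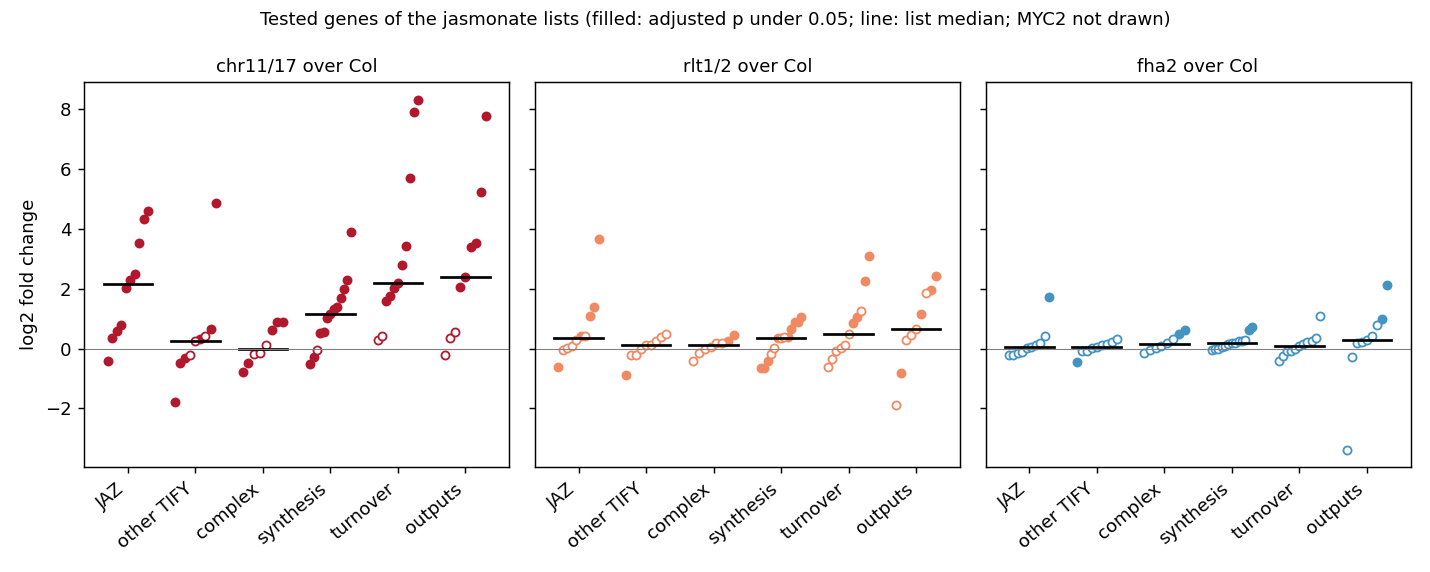
Log2 fold change over Col (vertical axis) of each tested gene in the JAZ, other TIFY, complex, synthesis, turnover and output lists, for the libraries labelled chr11/17, for rlt1/2 and for fha2. Points are genes, filled where the edgeR adjusted p is under 0.05, and lines are list medians. The JAZ median is 2.16, 0.35 and 0.04 from left to right, and MYC2, at 0 counts in Col, is not drawn.

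Lastly, the mean profile of the 10 JAZ genes, as log2(CPM + 0.5) minus the Col mean, was 1.83 and 1.75 for the libraries labelled chr11/17, 0.54 and 0.53 for rlt1/2, 0.14 and 0.15 for fha2, and 0.05 and -0.05 for Col. Of 7987 genes with a symbol, at least 2 CPM on average and in none of the lists, the 5 nearest to this profile over the 8 libraries were ATMDAR2, NTT1, PMDH1, ROC5 and UGT71B1, with root mean square differences of 0.065 to 0.0777 on the log2 scale. The mean profile hides the spread among the 10, which ran from JAZ6 at -0.40 to JAZ5 at 4.60 in the libraries labelled chr11/17.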

How the data were processed

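Expected counts (estimated read counts per gene that need not be whole), FPKM values and a table of log2 fold changes, p-values and q-values of each mutant over Col were deposited by the authors. FPKM was recognised from the deposited values. The submitters' processing notes name Bowtie2, RSEM, DESeq2 and the build TAIR10, without roles or versions. Strandedness is not stated in the labels or headers.

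Expected counts were rounded, filtered with filterByExpr (20866 of 25198 genes kept) and scaled by TMM. All 8 libraries entered 1 edgeR 4.0.16 quasi-likelihood fit (R 4.3.3) by genotype, tested on simulated data, with Benjamini-Hochberg adjustment over all genes. The 6 comparisons set each mutant against Col and the mutants against each other. Alternatives were RLE and total-count scaling, other filters, limma-voom (limma 3.58.1), DESeq2 1.42.0, the replicate block, pairwise fits, overlapping genes added and each library left out. Library pairs differed by more than counting noise. Bounds use 3 counts over the genotype.

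The members, lists and tests were chosen with earlier results of these data known. All JAZ, TIFY and complex genes could be named; from synthesis, turnover and outputs, up to 4 called genes with the smallest adjusted p in the libraries labelled chr11/17. LOX2, LOX6, AOC2, JOX4, VSP2 and the marker genes were named after their values were seen. Promoters came from the RefSeq assembly TAIR10.1, whose annotation matched 25198 of 25198 genes.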

Additional observations from a re-analysis of the deposited data

How the results depend on the processing

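Of the counts recomputed under alternatives, 202 stayed within 1.5 times and 22 did not, and no called log2 fold change of the 10 JAZ genes changed sign. For single JAZ genes, 693 values kept their side of the threshold, 15 crossed it upward and 14 downward. Scaled by total counts, 0 JAZ genes fell in the libraries labelled chr11/17 and 4 rose in fha2. Under that scaling, 1 other jasmonate gene fell in the libraries labelled chr11/17, 25 rose and 2 fell in rlt1/2, and 16 rose in fha2. Over all genes it gave 9243 rises and 5227 falls in the libraries labelled chr11/17 (7255 and 7171 with TMM), 8108 and 1849 in rlt1/2 (3912 and 3912), and 6059 and 665 in fha2 (1320 and 1828). With DESeq2, 2 other jasmonate genes fell in the libraries labelled chr11/17, against 4. With a filter of 1 CPM and with limma-voom, 1 JAZ gene (JAZ6) rose in fha2 against the libraries labelled chr11/17. Leaving out 1 library gave 0 to 2 JAZ genes higher in fha2 against Col and 0 to 1 against the libraries labelled chr11/17. Other jasmonate genes then numbered 2 to 4 lower in the libraries labelled chr11/17, 2 to 3 lower in rlt1/2 and 1 to 5 higher in fha2, each against Col. The causes were not tested.

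Same-numbered libraries correlated at -0.186 to 0.195 in their deviations, and the labels give only a shared number. With a replicate block, 2 JAZ genes rose in fha2 against rlt1/2, and also in a fit of only these 2 genotypes, where 1 rose in the fit of all 8 libraries; the second is JAZ9 at 0.41 (edgeR adjusted p = 0.0424 with the block). The block gave 7181 and 7112 calls over all genes in the libraries labelled chr11/17. Crossed numbers, added after seeing the data, gave 7361 and 7253 there and 4142 and 4125 in rlt1/2, with JAZ counts of 9 and 1, and of 4 and 1. JAZ8, at 3 to 8 counts outside the libraries labelled chr11/17, is limited by depth.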
